A study of Mus musculus with 11 samples.

Results

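This report describes how the loss of 2 repressors of translation, 4E-BP1 and 4E-BP2, changed the loading of messages onto polysomes in mouse lung beyond the change in their amount. The measure was the interaction, that is the knockout minus wild-type difference in polysomal RNA minus the same difference in total RNA, in log2 units. It rests on all 11 arrays of the series. Balb/c mice were wild type or carried 4ebp1-/-/4ebp2-/-, and both genotypes ate the purified AIN-93M diet from 5 weeks of age. Whole-lung total RNA was on 6 arrays, 3 per genotype. Polysomal RNA, the pooled heavy gradient fractions 7 to 10 that hold messages carrying at least 3 ribosomes, was on 2 wild-type and 3 knockout arrays. The knockout mice came from a research laboratory and the wild-type mice from a commercial breeder, so the genotype and the colony cannot be told apart. The deletion was in the whole animal, and whole lung was lysed. Nothing in the labels ties an array to its own mouse, so the p-values speak only of the spread among arrays, which may be technical.

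The 4E-BPs are small proteins that hold the cap-binding factor eIF4E and keep it from recruiting the scaffold eIF4G, and with it the small ribosomal subunit, to the capped end of a message. The kinase complex mTORC1 phosphorylates them and so releases eIF4E. Losing them frees eIF4E, and messages are known to differ in how far their translation depends on it. A message that is translated by many ribosomes sediments with heavy polysomes, so its polysomal level set against its total level is used as a measure of translation.

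Each array was normalised on its own RNA, so every value is relative to the other messages on that array, and an increase or decrease shared by all messages is not measured. In whole lung, fewer cells of a type and less RNA per cell cannot be told apart. The lung markers Sftpa1, a surfactant protein, and Scgb1a1, the club cell secretoglobin, ran from 14.96 to 15.4 and from 16.26 to 16.5 log2 over all 11 arrays. Other surfactant proteins varied more, Sftpc from 13.9 to 16.2, Sftpd from 14.2 to 15.4 and Sftpb from 10.5 to 14.8 log2. Dim probe sets that were not tested had medians of 2.30 to 2.49 log2, a floor below which values carry no order. Eif4ebp2 was at 4.50, 5.49 and 4.67 log2 in wild-type total RNA and at 2.61, 3.10 and 3.26 in knockout total RNA, near that floor. Eif4ebp1 was at 8.20 to 8.54 in wild-type and 7.92 to 7.94 in knockout total RNA. Its probes may lie outside the deleted sequence, so it does not check the labels. Neither gene passed in the interaction (Eif4ebp1 -0.27, SE 0.17, limma adjusted p = 0.29, and Eif4ebp2 -0.17, SE 0.38, adjusted p = 0.78). Wild-type total replicate 3 stood apart in the neutrophil genes S100a8 (14.4 log2 against 11.7 and 10.98) and S100a9 (12.4 against 10.3 and 9.68), while Ltf and Lcn2 did not stand apart there. The 4 neutrophil markers averaged 10.4 to 11.8 on the wild-type total arrays, 11.4 to 11.8 on the knockout total arrays, 11.1 to 11.6 on wild-type polysomal and 11.9 to 12.2 on knockout polysomal arrays. Their part in the results was not tested.

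One pattern ran through most genes. Messages that were richer on polysomes than in total RNA in wild-type lung were less so in knockout lung, and messages that were poorer on polysomes were less poor. The standard deviation of polysomal minus total RNA over 8085 genes was 1.48 log2 in wild type and 1.09 in knockout. The least-squares line of the knockout difference on the wild-type difference had a slope of 0.684 and an intercept of -0.01. Across genes, which are not independent replicates, Pearson's r was 0.927. Both differences come from separate arrays, 5 wild-type and 6 knockout ones.

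Binning by the wild-type difference showed the compression on both sides of 0. The 421 genes more than 3 log2 units richer on wild-type polysomes had a median of 3.60 in wild type and 2.54 in knockout. For the 82 genes more than 3 units poorer there, the medians were -3.37 and -2.19. The 2239 genes between 0 and 1 had medians of 0.45 and 0.24, and the 2258 genes between -1 and 0 had medians of -0.36 and -0.24. The slope was 0.692 over the 4637 genes above 0 and 0.651 over the 3448 genes below 0. Correcting for noise in the wild-type difference gave 0.697, a Deming fit 0.726 and the major axis 0.720.

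**Figure D1:**
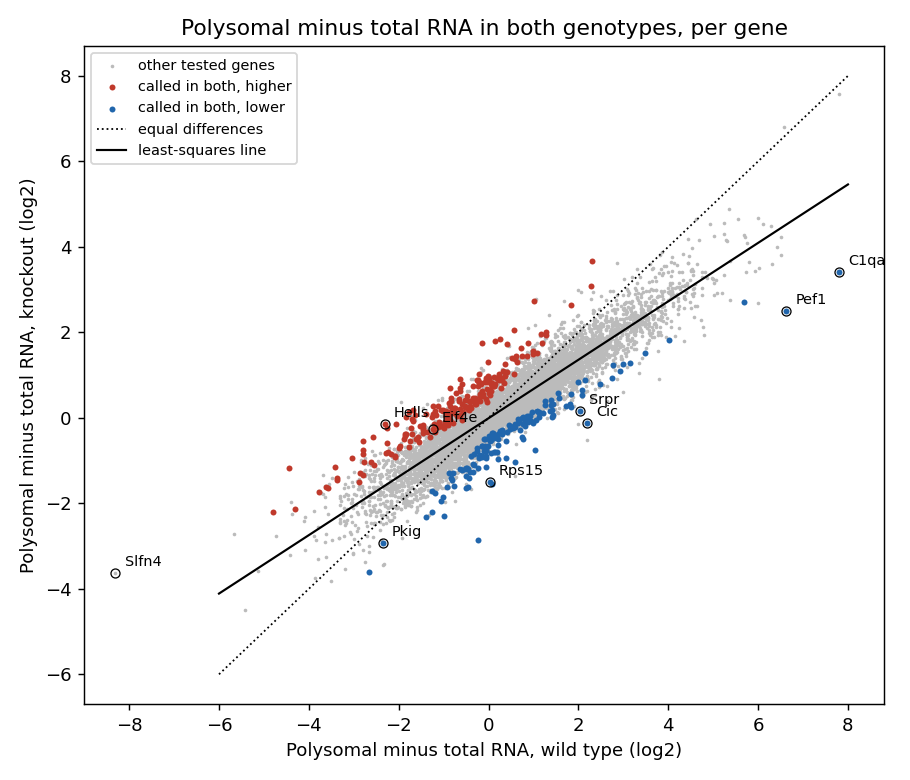
Polysomal minus total RNA in knockout lung (vertical axis, log2) against the same difference in wild-type lung (horizontal axis, log2) for 8085 genes, with the least-squares line of slope 0.684 and the dotted line of equal differences. Red and blue points are the 204 higher and 150 lower genes that passed both in the interaction and against the line, and they flank the line along most of its length.

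The slope changed little when 1 group was reduced to a single array. When 1 array stood for its whole group, the slope ran from 0.633, with wild-type total replicate 3, to 0.701, with knockout total replicate 1, and its SD over the 11 arrays was 0.02. Every one of these slopes lay below 1. The other groups kept all their arrays each time, so the slopes share most of their data. Their SD does not measure how the compression varies between replicates.

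**Figure D2:**
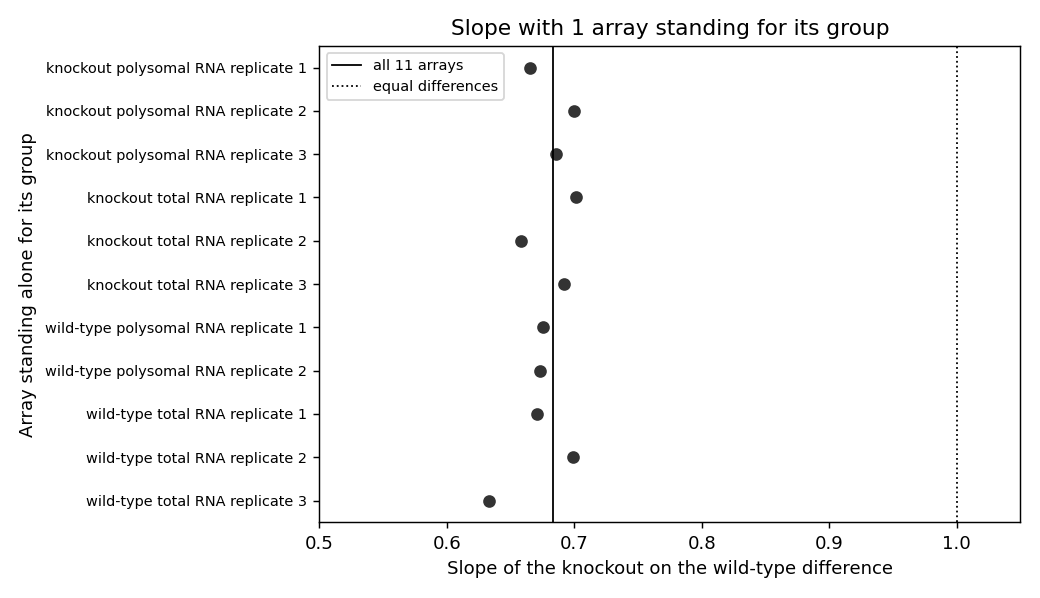
Slope of the knockout difference on the wild-type difference (horizontal axis) when 1 array stands alone for its group (vertical axis), with all 11 arrays as the solid line at 0.684 and equal differences as the dotted line at 1. The 11 slopes run from 0.633 to 0.701.

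By the interaction alone, 652 genes were higher on knockout polysomes than their total RNA accounted for (8.06% of those tested) and 1151 were lower (14.2%), by limma at a Benjamini-Hochberg adjusted p under 0.05. Many of these calls followed the compression. To judge a gene beyond it, its departure from the line was tested in the same limma fit, as the knockout difference minus 0.684 times the wild-type difference minus the intercept, with the line taken as fixed. By this test 309 genes lay above the line (3.82%) and 266 below it (3.29%). Both tests called 354 genes with the same sign, 204 higher (2.52%) and 150 lower (1.86%), which is 19.6% of the interaction calls and 61.6% of the departures. The other interaction calls took the direction of the compression without exception. All 999 lower genes that did not pass against the line were richer on polysomes in wild type, and all 446 such higher genes were poorer there. Since the interaction and the wild-type difference use the same wild-type arrays and a slope below 1 nearly requires this order, it is a description.

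The 4 genes called by both tests with opposite signs show the difference between these questions. Spint2, an inhibitor of serine proteases, and Nudc, a dynein-associated chaperone, were 3.33 and 3.51 log2 units richer on polysomes in wild type and 2.93 and 2.96 in knockout. Their interactions were -0.40 and -0.56, and yet they lay 0.66 (SE 0.10, limma adjusted p = 0.0078) and 0.57 (SE 0.11, adjusted p = 0.018) above the line. Cnot7, a deadenylase of the CCR4-NOT complex, and Nus1, which acts in dolichol synthesis, were the mirror image, with interactions of 0.51 and 0.46 and departures of -0.53 and -0.55. These messages moved toward 0 by less than the line gives for them.

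The 354 genes fell into classes by where the knockout minus wild-type difference lay. In the 204 called higher, 111 were raised in polysomal RNA with no call and under 0.5 log2 in total RNA, against 17 with a call in total RNA only. In 53 the 2 RNA kinds were called in opposite directions. Among the 150 lower genes the order was turned, with 81 called in total RNA only, 43 in polysomal RNA only and 12 in opposite directions. Only 4 genes changed in the same direction in both RNA kinds, namely Srpr, Sec14l2, Atf5 and Mmp14, and 33 fell in none of these classes. Total RNA had 3 against 3 arrays and polysomal RNA 2 against 3, so a polysomal difference needed to be larger to pass.

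**Figure D3:**
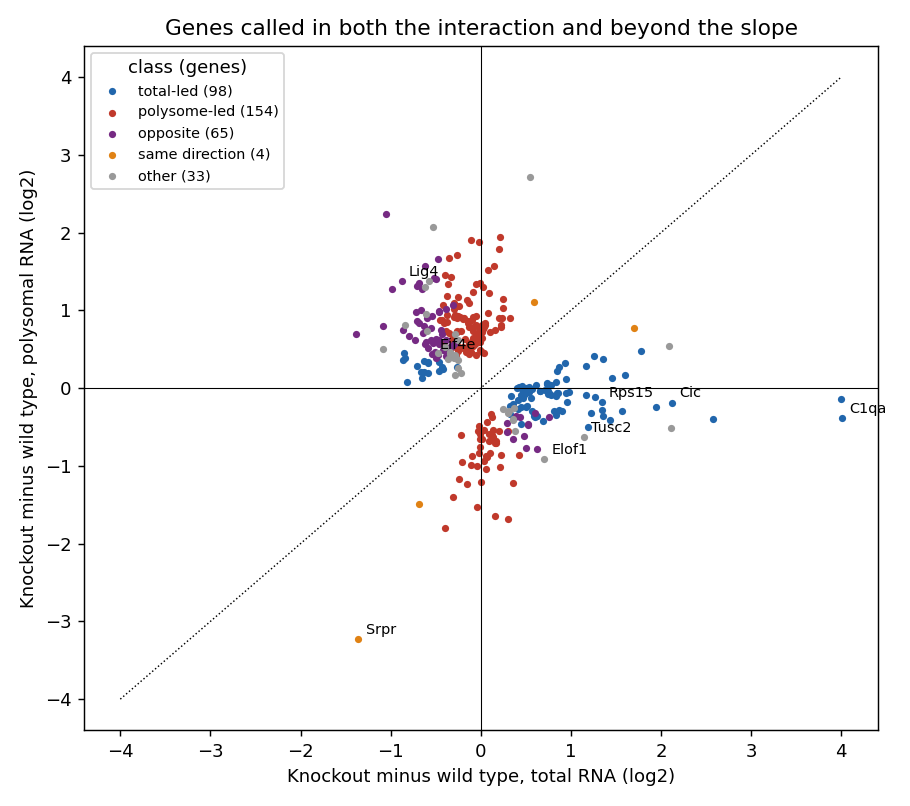
Knockout minus wild type in polysomal RNA (vertical axis, log2) against the same in total RNA (horizontal axis, log2) for the 354 genes called in both tests, coloured by class, with the dotted line of equal changes. The polysome-led genes (154) stretch along the vertical axis and the total-led genes (98) along the horizontal axis, and the 65 opposite genes sit in the upper left and lower right corners.

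Sp3 and Yipf4 rose on polysomes without a call in total RNA. Sp3, a transcription factor that binds GC boxes, was at 9.36 to 9.63 on all 6 total arrays, at 9.56 and 9.48 on the wild-type polysomal arrays and at 10.76, 10.91 and 10.58 on the knockout polysomal arrays. Only the knockout polysomal arrays left the common level, and the interaction was 1.33 (SE 0.15, limma adjusted p = 0.0023) and the departure 1.33 (SE 0.13, limma adjusted p = 0.0024). Yipf4, a Golgi membrane protein, was at 9.99 and 9.86 on wild-type and at 11.33, 11.11 and 10.88 on knockout polysomes, with a departure of 1.36 (SE 0.19, adjusted p = 0.0066).

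Other polysome-led genes included Rida, which clears reactive enamines (departure 1.45, SE 0.19), Clpx, the unfoldase of the mitochondrial ClpXP protease (1.40, SE 0.18), and Sfr1, a partner in homologous recombination (1.14, SE 0.14). Mageh1 (1.08, SE 0.12) and the co-chaperone Dnajc7 (0.79, SE 0.09) belonged to the same class. Clpx and Dnajc7 also illustrate a rise in the interaction that was smaller than the departure, 0.81 and 0.44, since both were already richer on polysomes in wild type. The interaction call for Clpx did not hold on removal of any of 6 arrays, and those for Dnajc7 and Sfr1 without 1 array.

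Some messages rose on polysomes while they fell in total RNA. Cops2, a subunit of the COP9 signalosome, was at 10.30, 10.35 and 10.13 log2 in wild-type total RNA and 9.62, 9.71 and 9.97 in knockout, but on polysomes it went from 8.59 and 8.41 to 9.68, 10.12 and 9.91. Its interaction was 1.90 (SE 0.20, limma adjusted p = 0.0021) and its departure 1.35 (SE 0.17, adjusted p = 0.0042). In wild type the total level was above every polysomal value, and in knockout both RNA kinds overlapped. Haus3, a subunit of the augmin complex that branches spindle microtubules, went from 7.75 to 8.01 down to 6.51 to 6.94 in total RNA and from 6.15 and 6.23 up to 6.93 to 7.10 on polysomes (departure 1.36, SE 0.16, adjusted p = 0.0036). The same pattern held for Slc6a14, an amino acid transporter of airway epithelium (departure 1.66, SE 0.21), Lig4, the ligase of DNA end joining (1.37, SE 0.25), and Pgm2l1 (1.33, SE 0.19). The Lig4 departure was lost without knockout polysomal replicate 2. Pmaip1, which encodes the cell-death protein Noxa, fell by 0.85 in total RNA and was 0.81 higher on polysomes without passing there (adjusted p = 0.079), with a departure of 1.71 (SE 0.31, limma adjusted p = 0.017). Hells, a chromatin remodeller of dividing cells, differed from these in being 0.55 higher in total RNA without passing (adjusted p = 0.14). It rose by 2.71 on polysomes and had a departure of 1.44 (SE 0.32, adjusted p = 0.030), which did not hold on removal of any of 9 arrays.

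Among the lower genes, Cic and Rps15 rose in total RNA without a call on polysomes. Cic, the repressor that holds back targets of receptor tyrosine kinase signalling, was at 6.26, 6.48 and 6.26 log2 in wild-type total RNA and at 8.85, 8.26 and 8.26 in knockout total RNA. On polysomes it was at 8.30 and 8.74 in wild type and 8.36, 8.26 and 8.37 in knockout. Only the wild-type total arrays stood apart from the other 8. The interaction was -2.31 (SE 0.26, limma adjusted p = 0.0023) and the departure -1.61 (SE 0.22, adjusted p = 0.0055). Rps15, a protein of the small ribosomal subunit, was at 10.77, 10.61 and 10.41 in wild-type and 11.83, 12.10 and 11.89 in knockout total RNA, with 10.84 and 10.40 on wild-type and 10.44, 10.41 and 10.46 on knockout polysomes. Its knockout total arrays lay above all others, with an interaction of -1.53 (SE 0.20, adjusted p = 0.0031) and a departure of -1.51 (SE 0.17, adjusted p = 0.0031).

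The total-led class also held Hras, the small GTPase, which rose by 1.46 in total RNA against 0.13 on polysomes (departure -1.20, SE 0.16, limma adjusted p = 0.0061). Stard10, a lipid transfer protein, had a departure of -1.43 (SE 0.20), Gemin7, a subunit of the SMN complex, one of -1.29 (SE 0.21), and Szrd1 one of -1.06 (SE 0.13). Pkig, an inhibitor of protein kinase A, had polysomal minus total RNA of -2.36 in wild type and -2.92 in knockout, so that the gap widened against the compression (departure -1.30, SE 0.13, adjusted p = 0.0024). Its interaction of -0.56 (SE 0.15) did not hold on removal of any of 6 arrays. Dnajc4 had a departure of -1.28 (SE 0.26), lost without either of 2 arrays.

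Other lower genes fell in polysomal RNA itself. Mt1, a metallothionein that binds zinc and copper, was at 10.58 to 10.98 on the 6 total arrays, at 9.89 and 9.37 on wild-type polysomes and at 8.39, 8.41 and 8.56 on knockout polysomes. The knockout polysomal values were the lowest of all 11, with a departure of -1.32 (SE 0.16, limma adjusted p = 0.0037). Srpr, the receptor that docks the signal recognition particle at the endoplasmic reticulum, fell in both RNA kinds, from 10.65, 11.08 and 10.27 to 9.24, 9.42 and 9.26 in total RNA and from 12.69 and 12.70 to 9.64, 9.33 and 9.44 on polysomes. The fall on polysomes was larger, and the departure of -1.22 (SE 0.22, adjusted p = 0.018) was lost without knockout polysomal replicate 2. Pomgnt1, a glycosyltransferase of dystroglycan, rose by 0.29 in total RNA and fell by 0.56 on polysomes (departure -1.002, SE 0.11, limma adjusted p = 0.0026). Hkdc1, a hexokinase-like protein, rose by 0.50 in total RNA while it fell by 0.77 on polysomes (departure -1.02, SE 0.13, adjusted p = 0.0042). Tusc2, Klhdc8a and the transcription elongation factor Elof1 fell into none of these classes. Tusc2 rose by 1.14 in total RNA and was at -0.64 on polysomes without passing there (adjusted p = 0.076), with a departure of -1.44 (SE 0.24). Klhdc8a passed in neither RNA kind (0.37 in total RNA and -0.55 on polysomes, departure -1.36, SE 0.22). Elof1 was at 0.70 in total RNA without passing (limma adjusted p = 0.061) and fell by 0.91 on polysomes (departure -1.58, SE 0.30). The Elof1 departure did not hold on removal of any of 3 arrays, and the gene was at 9.04 on wild-type total replicate 3 against 10.00 and 10.06 on the others.

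**Figure D4:**
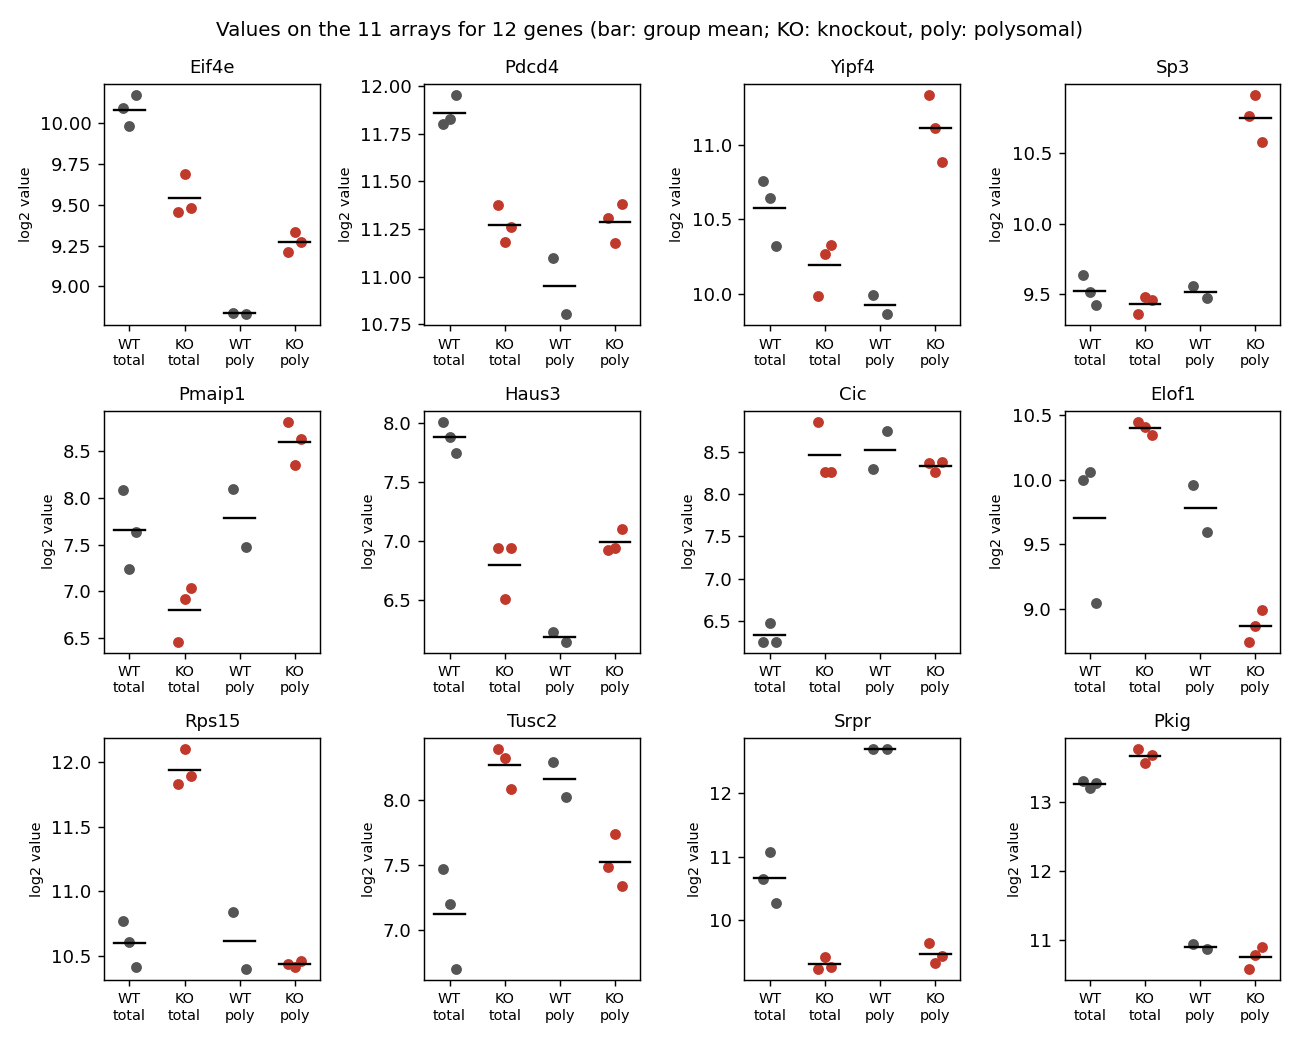
Log2 value on each of the 11 arrays (points) with the group mean (bar) for 12 genes, each panel with its own vertical axis that does not start at 0. Sp3 is raised on the 3 knockout polysomal arrays alone, Rps15 on the 3 knockout total arrays alone, and Cic is low on the 3 wild-type total arrays alone.

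Several large interactions shrank once the line was taken into account. C1qa, which macrophages make as part of complement C1q, was at 3.93, 3.93 and 3.49 log2 in wild-type and at 7.29, 7.88 and 8.20 in knockout total RNA, with 11.67 and 11.49 on wild-type and 10.97, 11.37 and 11.23 on knockout polysomes. Its interaction of -4.40 became a departure of -1.92 (SE 0.28, limma adjusted p = 0.0078). C1qa was the 1 of 11 tested macrophage markers that passed against the line (9.09%, against 3.29% of all genes below it). Of the 11, 7 were above 0, with a median departure of 0.17. Pef1, a calcium-binding protein of vesicle coats, went from -4.14 to -2.03 (SE 0.20, adjusted p = 0.0026). Both kept their call, although their wild-type total values lay near the floor, so that these sizes are not well measured. Ccnd3, cyclin D3, went from -1.62 to -0.64 (SE 0.21, adjusted p = 0.088) and did not pass. Slfn4 went from 4.67 to 2.05 (SE 0.95, adjusted p = 0.21) and did not pass, with 2.68 and 2.40 on wild-type polysomes at the floor and 10.46, 9.25 and 12.82 on the wild-type total arrays.

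A further 217 genes passed against the line but not in the interaction, 103 above and 114 below it. All 103 were richer on polysomes in wild type and all 114 were poorer, which passing one test and not the other nearly requires. Their polysomal minus total differences were not all alike in both genotypes: for Eln it was 0.42 in wild type and 1.41 in knockout. Rraga, a GTPase that brings mTORC1 to the lysosome, was richer by 3.87 and 3.88 (departure 1.25, SE 0.21, limma adjusted p = 0.012). It was the 1 of 15 tested mTOR pathway genes that passed (6.67%, against 3.82% of all genes above the line). Sftpb, surfactant protein B, was richer by 3.94 and 3.56 (departure 0.88, SE 0.17, limma adjusted p = 0.020), a call that did not hold on removal of any of 3 arrays. It was the 1 of 8 tested alveolar type 2 markers that passed (12.5%, against 3.82% of all genes above the line). Only 2 of the 8 were above 0 (25%, against 48.4%), with a median departure of -0.11. Rps21, a small-subunit protein, was at -2.04 in wild type and -2.12 in knockout by polysomal minus total RNA (departure -0.71, SE 0.11, adjusted p = 0.011).

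In the cap-binding machinery itself, the message of eIF4E was one of the few to depart from the line. Eif4e was at 10.09, 9.98 and 10.17 log2 in wild-type total RNA and 9.45, 9.69 and 9.48 in knockout. On polysomes it was at 8.84 and 8.83 in wild type and at 9.21, 9.33 and 9.27 in knockout. It fell in total RNA and rose on polysomes with no overlap of the genotypes in either. From an interaction of 0.98 (SE 0.14), 0.59 remained as a departure (SE 0.12, limma adjusted p = 0.021), a call that did not hold on removal of any of 4 arrays. Pdcd4, which blocks the helicase eIF4A, was at 11.80, 11.83 and 11.95 in wild-type and 11.38, 11.18 and 11.26 in knockout total RNA, and at 11.10 and 10.80 on wild-type and 11.31, 11.18 and 11.38 on knockout polysomes. Its departure was 0.65 (SE 0.13, limma adjusted p = 0.024), which also did not hold on removal of any of 4. These 2 of 16 tested genes of this list are 12.5% above the line, against 3.82% of all genes, and none lay below it. In the interaction 12.5% were higher, against 8.06%, and none lower. The other 14 did not pass against the line, and the median departure of the list was -0.01, as over all genes.

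Of 28 other initiation factors, 4 were higher and 7 lower in the interaction, and 2 lay above the line and none below it. The shares were 14.3% and 25% in the interaction and 7.14% above the line, against 8.06%, 14.2% and 3.82% of all genes. Eif3a, the largest subunit of the scaffold eIF3, was at 6.73 and 6.87 on wild-type and 7.20, 7.79 and 7.90 on knockout polysomes (departure 1.17, SE 0.21, limma adjusted p = 0.016). Its interaction did not hold on removal of any of 10 arrays. Eif5, which triggers GTP hydrolysis at the start codon, had a departure of 0.43 (SE 0.11, adjusted p = 0.047), lost with any of 10 arrays. None of the 15 tested textbook eIF4E-sensitive messages passed against the line, where 3.82% of all genes lay above and 3.29% below. Their median departure was -0.09. In the interaction 1 was higher (6.67%, against 8.06%) and 1 lower (6.67%, against 14.2%). The smallest p against the line was that of Nbn, a DNA break sensor, at 1.06 (SE 0.31, limma adjusted p = 0.070). Nbn passed in the interaction (1.24, SE 0.37, limma adjusted p = 0.041), a call lost with any of 8 arrays. None of 5 elongation factors passed against the line, and all 5 were below 0, with a median of -0.23. In the interaction 2 of the 5 were lower (40%, against 14.2%).

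Cytosolic ribosomal protein messages are classical targets of mTOR through their 5′ terminal oligopyrimidine tract. The list held 26 of them, and the 21 tested stood mostly below the line. Other members of the family were not assessed. Of the 21, 5 were called below the line (23.8%, against 3.29% of all genes) and none above, and 2 had a value above 0 (9.52%, against 48.4%). Their median departure was -0.36, while their median interaction was -0.07, against -0.13 over all genes. In the interaction 1 was higher (4.76%, against 8.06%) and 6 were lower (28.6%, against 14.2%). Beside Rps15 and Rps21 the 5 below the line held Rpl37a, at 5.28 and 5.78 on wild-type and 4.91, 4.47 and 4.69 on knockout polysomes (departure -1.77, SE 0.22, limma adjusted p = 0.0039), and Rpl32 (-0.84, SE 0.17, adjusted p = 0.021). The other was Rplp2, a stalk protein of the large subunit named after its values were seen (-0.61, SE 0.12, limma adjusted p = 0.023). The departure of Rpl32 did not hold on removal of any of 3 arrays. Without knockout total replicate 1 or 2, 3 members passed, and after quantile normalization 8 did. Ribosomal protein genes have many processed copies in the genome, and the sharing of probes with them was not analysed here. Of 66 mitochondrial ribosomal proteins 2 lay above (3.03%, against 3.82% of all genes) and 3 below the line (4.55%, against 3.29%), with a median of -0.02. Mrps24 was the lowest p among them (departure -0.76, SE 0.12, adjusted p = 0.011). Mrpl53 (-0.70, SE 0.14), Mrpl50 (0.70, SE 0.15) and Mrpl36 (0.49, SE 0.12) each lost the call on removal of any of 5 to 9 arrays.

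Messages of splicing factors and RNA helicases stood mostly above the line. Their median interaction was 0.00, against -0.13 for all genes, and their median departure 0.27, with 35 of 45 above 0 (77.8%, against 48.4%). In the interaction 7 were higher (15.6%, against 8.06%) and 8 lower (17.8%, against 14.2%). Against the line 6 lay above (13.3%, against 3.82% of all genes) and none below. Hnrnph1, which binds G-rich splicing signals, went from 13.32 and 13.35 on wild-type to 13.71, 13.79 and 13.95 on knockout polysomes while it fell in total RNA by 0.35 (departure 0.88, SE 0.12, limma adjusted p = 0.0066). Hnrnpm (0.83, SE 0.16), Hnrnpd, which binds AU-rich elements (0.70, SE 0.14), and the SR protein Srsf1 (0.64, SE 0.12) also lay above the line. The call for Hnrnpd did not hold on removal of any of 3 arrays, and those for Hnrnpm and Srsf1 without knockout total replicate 2. Without knockout total replicate 1 or knockout polysomal replicate 2, 3 members of the list passed, and without knockout total replicate 2 only 1 did.

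Zfp genes, most of which encode zinc finger DNA-binding proteins, were poor on polysomes in wild type, so that most of their interaction was that of the line. Of 135 tested, 36 were higher in the interaction (26.7%, against 8.06% of all genes) and none lower, against 14.2%. Against the line 14 lay above (10.4%, against 3.82% of all genes) and 4 below (2.96%, against 3.29%). The median went from 0.32 in the interaction to 0.09. Zfp959 was at 9.49, 9.69 and 9.41 log2 in wild-type and 8.25, 7.76 and 8.42 in knockout total RNA, and at 6.47 and 6.53 on wild-type and 7.13 to 7.26 on knockout polysomes (departure 1.14, SE 0.20, limma adjusted p = 0.013). Zfp120 (0.91, SE 0.17) and Zfp758 (0.86, SE 0.16) also lay above the line. Zfp647 lay below it (-0.76, SE 0.13, adjusted p = 0.014). The call for Zfp120 was lost without knockout polysomal replicate 2 and that for Zfp758 without either of 2 arrays. Members of this family resemble one another in sequence, so their probe sets may share signal. The number above the line was 1 without knockout polysomal replicate 2, 2 and 3 without knockout total replicates 1 and 2, 4 and 7 without wild-type polysomal replicates 2 and 1, 5 without wild-type total replicate 1, and 8 and 5 without knockout polysomal replicates 1 and 3. With no filter on low values it was 6, against 2 below.

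In lists of vascular, proteolytic and metabolic messages, more than the 14.2% of all genes were lower in the interaction, and few members lay below the line, as did 3.29% of all genes. The shares lower in the interaction were 55% of endothelial, 28.6% of proteasome, 22.2% of xenobiotic, 32.6% of lysosomal and 20% of oxidative phosphorylation genes. Endothelial markers were lower in 11 of 20 cases, with a median of -0.74, but had 1 gene above and 1 below the line and a median departure of -0.03. Sox17, a transcription factor of arterial endothelium, was below it, at 10.78 and 10.88 on wild-type and 9.93, 9.81 and 9.81 on knockout polysomes (departure -0.58, SE 0.10, limma adjusted p = 0.015), a call lost without either of 2 arrays. Tek, the angiopoietin receptor, was above it (0.71, SE 0.13, adjusted p = 0.016). The mean of the 20 markers was 8.92 to 9.03 log2 on wild-type total, 9.55 to 9.70 on knockout total, 11.3 on both wild-type polysomal and 11.04 to 11.3 on knockout polysomal arrays. The part of cell numbers in this was not tested. Proteasome subunits went from 10 of 35 lower and a median of -0.62 to 1 above the line (Psmd10, 0.54, SE 0.14, lost with any of 10 arrays) and a median of 0.09. Of 45 xenobiotic metabolism genes 10 were lower in the interaction and none passed against the line, the nearest being Cyp4f15 (-0.95, SE 0.30, limma adjusted p = 0.087). Lysosomal genes went from 15 of 46 lower to 1 below the line, the sialidase Neu1 (-0.69, SE 0.18), lost with any of 9 arrays. Of 65 oxidative phosphorylation genes, 13 were lower in the interaction and 2 lay below the line, Atp5k (-0.53, SE 0.10), lost with any of 3 arrays, and Uqcr10 (-0.88, SE 0.20), lost with any of 7.

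**Figure D5:**
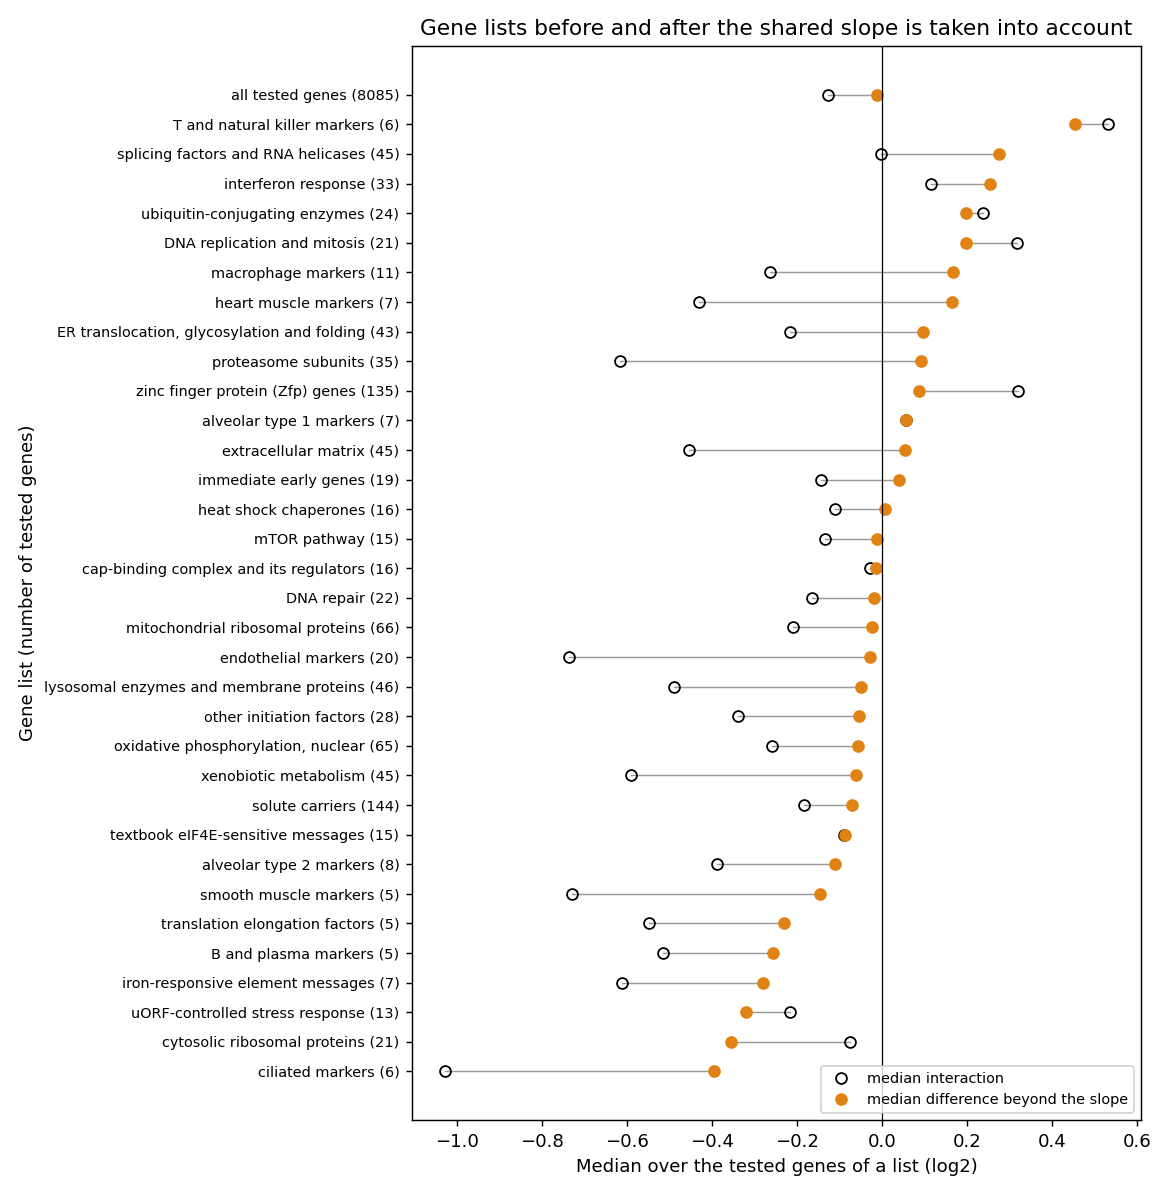
Median interaction (open circles) and median departure from the line (filled circles), both in log2 on the horizontal axis, for each gene list with at least 5 tested members on the vertical axis (number tested in brackets). Endothelial, proteasome and xenobiotic lists move to near 0 when the line is considered, while splicing factors move to 0.27 and cytosolic ribosomal proteins to -0.36.

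Of 45 tested extracellular matrix genes, 3 were higher in the interaction (6.67%, against 8.06% of all genes) and 12 lower (26.7%, against 14.2%). The median interaction was -0.45. Against the line 4 lay above (8.89%, against 3.82% of all genes) and none below, with a median of 0.05, and 2 of the 4, Mmp14 and Postn, were higher in the interaction too. They were Mmp14, a membrane-bound matrix protease, at 5.47 and 5.36 on wild-type and 6.60, 6.42 and 6.55 on knockout polysomes (departure 0.84, SE 0.13, limma adjusted p = 0.0090), Postn, periostin (0.99, SE 0.20), Eln, elastin (1.13, SE 0.27), and the microfibril protein Mfap2 (0.98, SE 0.24). The interaction of Mmp14 did not hold on removal of any of 8 arrays. The departure of Postn was lost with any of 5 arrays, and those of Eln and Mfap2 with any of 9. Of the 4 genes, 1 or 2 passed without wild-type total replicate 1, wild-type polysomal replicate 2, any knockout total array, or knockout polysomal replicate 2 or 3.

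Among 13 tested stress-response messages with upstream open reading frames, 2 lay below the line (15.4%, against 3.29% of all genes) and none above. Both encode transcription factors. In the interaction 2 of the 13 were higher (15.4%, against 8.06%) and 4 lower (30.8%, against 14.2%). Atf5 was at 6.84, 6.98 and 6.53 log2 in wild-type and 8.40, 8.63 and 8.44 in knockout total RNA, and at 6.49 and 6.60 on wild-type and 7.35, 7.35 and 7.25 on knockout polysomes. It rose in both RNA kinds, by less on polysomes (departure -0.996, SE 0.15, limma adjusted p = 0.0088). Atf4 was at 10.09 to 10.30 in wild-type and 10.64 to 10.77 in knockout total RNA, with 9.77 and 9.96 on wild-type and 9.34 to 10.02 on knockout polysomes (departure -0.84, SE 0.20, adjusted p = 0.036), a call that did not hold on removal of any of 8 arrays. The other 11 of 13 members did not pass, and the median departure of the list was -0.32, against -0.01 over all genes. Ubiquitin-conjugating enzymes had 2 of 24 members above the line (8.33%, against 3.82% of all genes) and none below it, and none of either with a mean of at least 7 log2 as the filter. Ube2v2, a ubiquitin-conjugating enzyme variant that acts in DNA damage tolerance, went from 4.18 and 4.32 on wild-type to 5.90, 5.77 and 5.79 on knockout polysomes while it fell by 0.61 in total RNA (departure 0.83, SE 0.11, limma adjusted p = 0.0049). The other was Ube2o, a hybrid ubiquitin ligase, which was at the floor in total RNA and reached the filter minimum only on knockout polysomes, so that its departure of 2.11 has no weight as support.

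Among 21 genes of DNA replication and mitosis, 5 were higher in the interaction (23.8%, against 8.06% of all genes) and 2 lay above the line (9.52%, against 3.82%). Tk1, the thymidine kinase of S phase, was at 4.23 to 4.73 log2 on the 6 total arrays, at 4.44 and 4.77 on wild-type and at 6.33, 6.86 and 5.97 on knockout polysomes. It reached the filter minimum of 5 log2 in that group alone, so it could enter the test only with a difference, and its departure of 1.68 (SE 0.26) is a description. Hells was the other. Sgo1, which protects centromeric cohesin, reached the minimum on knockout total arrays alone, and its departure of -2.69 (SE 0.36) has the same limit. Among 144 solute carriers, 3 lay above (2.08%) and 5 below the line (3.47%), against 3.82% and 3.29% of all genes, with the mitochondrial carrier Slc25a23 at -1.21 (SE 0.19) and the zinc importer Slc39a1 at 0.97 (SE 0.19), lost without knockout total replicate 2. Slc25a46 had 0.65 (SE 0.13), lost with any of 5 arrays.

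No member passed against the line in the lists of interferon response (33 tested), heat shock (16), immediate early (19) and iron-responsive element messages (7). The same held for markers of alveolar type 1, club, ciliated, smooth muscle, heart muscle, neutrophil, T and natural killer, B and plasma, and red cell precursor cells. Of all genes, 3.82% lay above the line and 3.29% below it. Median departures of these marker lists ran from -0.40 (6 ciliated markers) to 0.60 (2 red cell precursor markers). The interferon list had a median departure of 0.25, with 78.8% above 0, against 48.4% of all genes. In the interaction 6 interferon genes were higher (18.2%, against 8.06%) and 4 lower (12.1%, against 14.2%). Foxj1, the regulator of motile cilia, had the smallest p of the ciliated markers (-0.65, SE 0.20, limma adjusted p = 0.077), and Fth1, the ferritin heavy chain, that of the iron-responsive ones (-0.82, SE 0.26, adjusted p = 0.084). Ifi209 (1.72, SE 0.47, adjusted p = 0.057) was nearest among interferon genes. The members with the smallest p in other lists were Eef1b2 of the elongation factors (-0.23, SE 0.12), the antiproliferative gene Btg2 of the immediate early genes (0.55, SE 0.22) and the small chaperone Cryab (-0.28, SE 0.11). Among markers they were the water channel Aqp5 of type 1 cells (-0.28, SE 0.12), desmin, Des, of smooth muscle (-0.46, SE 0.13), Cd3g of T cells (0.77, SE 0.38), Mzb1 of plasma cells (-0.51, SE 0.23) and Alas2 of red cell precursors (0.73, SE 0.38). Heart muscle markers averaged 7.39 to 8.18 log2 on wild-type total and 8.24 to 9.05 on knockout total arrays, against 9.36 to 9.85 and 9.53 to 10.65 on polysomes, and Tnnc1 had a departure of 0.54 (SE 0.30, limma adjusted p = 0.28). Their part in other results was not tested.

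The calls rested on few arrays. Of the 354 genes, 351 had knockout polysomal minus total differences, taken over all pairs of arrays, that did not overlap with those of wild type. The genes were called on these same values, which nearly requires such a gap, so the count is a description and no support. The share over all tested genes is not given here. All 4 group means were at or above 5 log2 in 312 of the 354. Leaving out any 1 of the 11 arrays kept 74 of the 354 in both tests, 41 higher and 33 lower. These 74 include Sp3, Cops2, Haus3, Rida, Yipf4, Slc6a14, Pgm2l1, Mageh1, Ube2v2, Hnrnph1 and Zfp959 above the line. They also include Cic, Rps15, Hras, Stard10, Gemin7, Tusc2, Szrd1, Mt1, Pomgnt1, Hkdc1, Atf5, C1qa and Pef1 below it. Among the named genes, others kept the departure on each removal but not the interaction. It was lost with any of 6 arrays for Rpl37a, Clpx, Pkig and Ube2o, with any of 8 for Klhdc8a and Mmp14 and with any of 10 for Eif3a. For Dnajc7, Sfr1 and Pmaip1 it was lost without wild-type polysomal replicate 2. Of the 354 genes, 10 reached the filter minimum in 1 group alone and so had to differ between groups to be tested. The number called in both was 117 without knockout total replicate 1, 133 without replicate 2 and 221 without replicate 3 of that group. It was 164 without wild-type total replicate 1, 191 without wild-type polysomal replicate 2, and 119 and 223 without knockout polysomal replicates 2 and 3. Without wild-type total replicate 3 it was 589, among them 341 of the 354.

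The start of the message, where eIF4E acts, was compared by base composition alone. RefSeq start windows of assembly GRCm38.p6 were matched by symbol for 168 of the 204 higher and 124 of the 150 lower genes, and for 80.1% of all tested genes. The first 50 transcribed bases had a median GC content of 65.7% in the higher genes, 66.0% in the lower genes and 66.0% in all tested genes. Median expression over all arrays was 8.97, 8.20 and 8.61 log2 in these groups. No test was made on these medians.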

How the data were processed

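Per the labels' protocols, 100 ng of lung RNA was biotin-labelled with a kit of 2 amplification cycles and hybridised to one-colour Affymetrix arrays. The deposited log2 values, whose scale was read from their range, run from 0.73 to 16.7 with array medians of 4.96 to 5.04. Per the submitters' processing notes the authors made them with GCRMA, which corrects background, normalises and summarises probes. No version of it is named there. Among 26180 probe sets, named by RefSeq accession, 15228 matched 1 gene each (14351 genes) in the RefSeq table of GRCm38.p6. Genome coordinates were not used.

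A probe set was tested where it reached 5 log2 on at least 2 of the 11 arrays, which kept 13802. Each of 8085 genes was represented by its brightest probe set. limma 3.58.1 (R 4.3.3) was fitted to all 11 arrays, with a mean for each of the 4 groups (lmFit, eBayes, 7 residual and 2.67 prior degrees of freedom). Tests were two-sided with Benjamini-Hochberg adjustment over all tested probe sets at 0.05, and all adjusted p-values are from this fit. The departure from the line is a contrast of the same fit with the slope and intercept over the 8085 genes held fixed. Alternatives are in the closing section. The script was tested on simulated data.

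The genes, lists and rules were chosen with earlier results of these data known. Genes are named by rule: the 12 largest departures each way called in both tests with group means of at least 5, the 4 smallest p in each class, up to 4 called members of each list or else its smallest p, and 8 genes always given. Spint2, Nudc, Cnot7, Nus1, Sec14l2, Rplp2, Sftpa1, Sftpc, Sftpd and the other neutrophil genes lie outside the rule and were named after their values were seen. Of the genes the rule names, 2 are not reported here. The number of arrays limits the precision. Figures were drawn with matplotlib 3.10.9.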

Additional observations from a re-analysis of the deposited data

Results flagged for a closer look

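The 4 genes named from the opposite class were Cops2 (interaction 1.90), Haus3 (1.88), Hkdc1 (-1.27) and Pomgnt1 (-0.85). That class requires opposite genotype differences in the 2 RNA kinds and a limma adjusted p under 0.05 in the interaction. Both traits were thus fixed by the choice of these 4 genes and are a description. Other named genes, such as Eif4e and Lig4, were in the same class. Outside the named genes, 5272 tested probe sets had no gene name. Of these 5272, 184 lay above the line and 177 below it. Counted separately, 1120 of the 5272 passed in the interaction. Which transcripts these are was not analysed here.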

How the results depend on the processing

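The slope, 0.684, was 0.726 by a Deming fit and 0.720 by the major axis. At an adjusted p of 0.01 the interaction calls fell to 183 higher and 290 lower, the departures to 35 and 34, and the genes in both to 17 and 16. With array weights there were 1003 higher interaction calls, 753 and 716 departures and 481 and 419 in both. A 1.5-fold minimum left 96 lower genes in both. With a slope of 1 and the median as intercept there were 899 and 747 departures and 652 and 747 genes in both, and the departures of Rps21 (0.053), Mfap2 (-0.20) and Sftpb (-0.25) reversed. Leaving out 1 array gave 379 to 808 higher and 672 to 1279 lower interaction calls, 102 to 506 and 98 to 430 departures, 63 to 337 and 54 to 252 genes in both, and slopes of 0.665 to 0.697. A loess curve kept 350 of the 354 genes and quantile normalization 303. Without a filter on low values 233 remained. Of 4604 recomputed values for named genes, 4184 kept direction and side of the threshold, 367 lost the call, 50 gained it and 3 reversed, and the causes were not tested.

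The labels give set letters, which were tried as a replicate block. Deviations of same-letter arrays of one RNA kind correlated at -0.07 to 0.09 and those of other letters at -0.09 to 0.06, so the letters did not pair the samples. As a fixed block, 469 higher and 820 lower genes passed in the interaction, 257 and 240 against the line and 149 and 125 in both, with a slope of 0.680. Of the 354 genes, 217 were still called in both with the fixed block. As a random block within RNA kind the counts were 707 and 1269, 360 and 316, and 239 and 185, and all 354 genes were kept.

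Wild-type polysomal RNA had 2 arrays. With 1 array left in a group, that array is assumed to vary like the others. Protein features were not analysed here. The line is taken as fixed, without its own error, and near the floor sizes are not measured.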
